A study of Mus musculus with 5 samples.

Results

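The circadian clock genes followed here were Arntl, Clock, Npas2, Per1, Per2, Per3, Cry1, Cry2, Nr1d1 and Nr1d2, chosen by symbol as the listed core genes of the clock, and all 10 were found among the 32285 genes of each matrix. Their UMI counts (unique molecular identifiers, each standing for a captured RNA molecule) were summed over nuclei of mouse interscapular brown adipose tissue (iBAT) that carried markers of the same cell type. Levels are given as CPM, the gene's counts scaled to a total of 1000000 UMIs of those nuclei. Single-nuclei RNA sequencing had been done on 5 samples, with 1 library per condition. A matrix with 2 libraries held 3-month-old male WT littermate controls and Ucp1-STX4KO mice, in which STX4 fl/fl alleles are deleted by Cre driven from the Ucp1 promoter, that is, in brown adipocytes. A matrix with 3 libraries held C57BL/6J males of 2, 12 and 24 months. The methods name 4 male mice as the source of nuclei without saying whether this was for each library or over all of them, a light and dark cycle, and no hour of tissue collection in the sources used here.

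In the mammalian clock, ARNTL (BMAL1) pairs with CLOCK or its relative NPAS2 and activates genes through E-boxes in their promoters. The PER and CRY proteins are products of such genes and inhibit that pair, and NR1D1 and NR1D2 (REV-ERBα and REV-ERBβ) repress Arntl and Npas2 through ROR response elements, so that transcripts of the activators and of the repressors peak at different hours of the day. The clock runs in nearly every cell type, and in brown fat REV-ERBα is known for repressing thermogenic genes. Per1 and Per2 also respond to signals from outside the clock, such as glucocorticoids and cAMP.

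Libraries of a matrix are told apart by a suffix on their barcodes, here used as the library number, and no label links a suffix to a sample. No genotype or age is therefore given to any library, and a difference between libraries cannot be told apart from a difference in genotype, age, mouse, hour of collection or handling. With 1 library on each side no p-value was computed. Intervals are exact 95% intervals that cover counting error only.

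The promoters of 4 members are shown because they carry the element types through which the clock assigns its phases. Each is the RefSeq stretch from 250 bases before to 50 after a transcription start (GRCm38.p6), 5′ to 3′ on the gene's strand, with the matching motif in capitals. Promoters were listed for 9 of the 10 members, Per2 being the exception, and more than 1 for some of them. Per1 (chr11:69098699-69098998, plus strand) and Cry1 (chr10:85185005-85185304, minus strand) hold 1 E-box each, spelled CACGTG on both strands. Per3 (chr4:151044616-151044915, minus strand) holds 2 D-boxes of the form TTATGTAA, the element bound by DBP, TEF, HLF and their repressor NFIL3. Arntl (chr7:113207261-113207560, plus strand) holds a ROR response element downstream of its start, the site class of the REV-ERB and ROR receptors.
Per1: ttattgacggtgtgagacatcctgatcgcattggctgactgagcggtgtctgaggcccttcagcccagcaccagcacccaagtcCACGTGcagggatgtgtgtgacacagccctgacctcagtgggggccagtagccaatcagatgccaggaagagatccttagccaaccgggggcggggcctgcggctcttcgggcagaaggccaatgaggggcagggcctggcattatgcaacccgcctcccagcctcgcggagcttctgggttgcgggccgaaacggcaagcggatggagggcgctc
Cry1: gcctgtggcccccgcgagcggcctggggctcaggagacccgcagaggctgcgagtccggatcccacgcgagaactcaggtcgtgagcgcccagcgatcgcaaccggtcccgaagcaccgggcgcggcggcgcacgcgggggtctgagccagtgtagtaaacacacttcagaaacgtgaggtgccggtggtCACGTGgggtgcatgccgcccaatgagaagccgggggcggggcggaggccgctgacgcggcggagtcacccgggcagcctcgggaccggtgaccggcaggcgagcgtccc
Per3: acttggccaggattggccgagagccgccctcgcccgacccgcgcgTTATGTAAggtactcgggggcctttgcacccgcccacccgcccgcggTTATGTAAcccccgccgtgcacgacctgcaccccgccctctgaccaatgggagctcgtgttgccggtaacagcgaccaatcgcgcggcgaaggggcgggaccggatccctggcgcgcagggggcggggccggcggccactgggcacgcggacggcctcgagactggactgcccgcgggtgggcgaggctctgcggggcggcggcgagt
Arntl: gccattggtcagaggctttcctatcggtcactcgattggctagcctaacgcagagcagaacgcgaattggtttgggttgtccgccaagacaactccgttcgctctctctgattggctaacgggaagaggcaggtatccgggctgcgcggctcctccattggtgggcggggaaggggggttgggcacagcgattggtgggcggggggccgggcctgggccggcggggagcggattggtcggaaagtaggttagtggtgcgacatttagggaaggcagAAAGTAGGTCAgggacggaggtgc
Of 32851 RefSeq promoters of the same length, 7.15% held the E-box, 0.938% the D-box TTATGTAA, 0.119% the D-box TTACGTAA and 0.384% the ROR response element on either strand. The listed promoters of Clock, Npas2, Cry2, Nr1d1 and Nr1d2 held none of these letters. Neither did the other listed promoter of Per1 (chr11:69099902-69100201) or that of Arntl (chr7:113207215-113207514). A match is a description of these letters and not a measured site.

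Nuclei were assigned to a type by 9 lists of 6 to 7 marker genes. In the WT and Ucp1-STX4KO matrix, 19087 of 20307 nuclei (94.0%) were assigned, and 5 types had at least 50 nuclei in both libraries. These were adipocytes (10441 nuclei in library 1 and 5811 in library 2), macrophages (73 and 635), endothelial cells (65 and 296), stromal cells (319 and 500) and mural cells (176 and 234). In the matrix of the 3 ages, 24272 of 27842 nuclei above the lower depth limits were assigned, to adipocytes (761, 789 and 314 in libraries 1, 2 and 3), endothelial cells (2504, 6895 and 7993), stromal cells (407, 197 and 288) and mural cells (2180, 617 and 721). Its samples carry the label of brown adipocytes, yet most of its assigned nuclei carried endothelial markers. All markers of each type's own list had UMIs in that type, apart from 1 of 7 stromal markers in library 3 of the ages.

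The libraries stood apart in depth and in carried-over RNA. A barcode held 5998 (library 1) or 3284.5 (library 2) UMIs at the median in the first matrix, and from 891 to 1719.5 in the second. Mitochondrially encoded genes took at most 0.213% of UMIs in the libraries with WT and Ucp1-STX4KO mice, and 2.92%, 12.6% and 6.35% in libraries 1, 2 and 3 of the ages. Ucp1, the uncoupling protein of brown adipocytes, reached 0.283 to 0.414 of its adipocyte level in the other types of library 1 of the first matrix and 0.182 to 0.539 in library 2. In the matrix of the ages it reached at most 0.142. The 7 adipocyte markers gave a larger share in some types of that matrix. In endothelial cells of its library 1 they summed to 3268 CPM, against 9573 CPM in adipocytes. The Ucp1 share in that library was at most 0.0522. The Ucp1 share is the adipocyte share subtracted below. It rests on 1 gene, and the subtracted values have no interval. Endothelial markers in adipocytes of the ages summed to 540, 1142 and 1284 CPM in libraries 1, 2 and 3. In endothelial cells they summed to 10787, 7307 and 11316 CPM, and endothelial RNA was not subtracted. The median log2 ratio of all genes between libraries 2 and 1 of the first matrix was -0.28 in adipocytes and -0.11 in macrophages, and in the second matrix it reached -0.17 in adipocytes. Libraries of a matrix shared 23 barcodes in the first and 99 in the second.

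The first question was whether libraries 1 and 2 with the WT and Ucp1-STX4KO mice differed in clock genes in several cell types at once. Nr1d1 was lower and Per1 higher in library 2 in all 5 types, though not in macrophages and endothelial cells, respectively, once carried-over adipocyte RNA was subtracted. Per2 and Clock were lower in all 5, each with intervals that included 1 in 3 types and with the direction of Clock in stromal cells turning after the subtraction, and Arntl and Npas2 moved in opposite directions in different types. Activators as a group and repressors as a group therefore did not lie on opposite sides in every type.

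**Figure D1:**
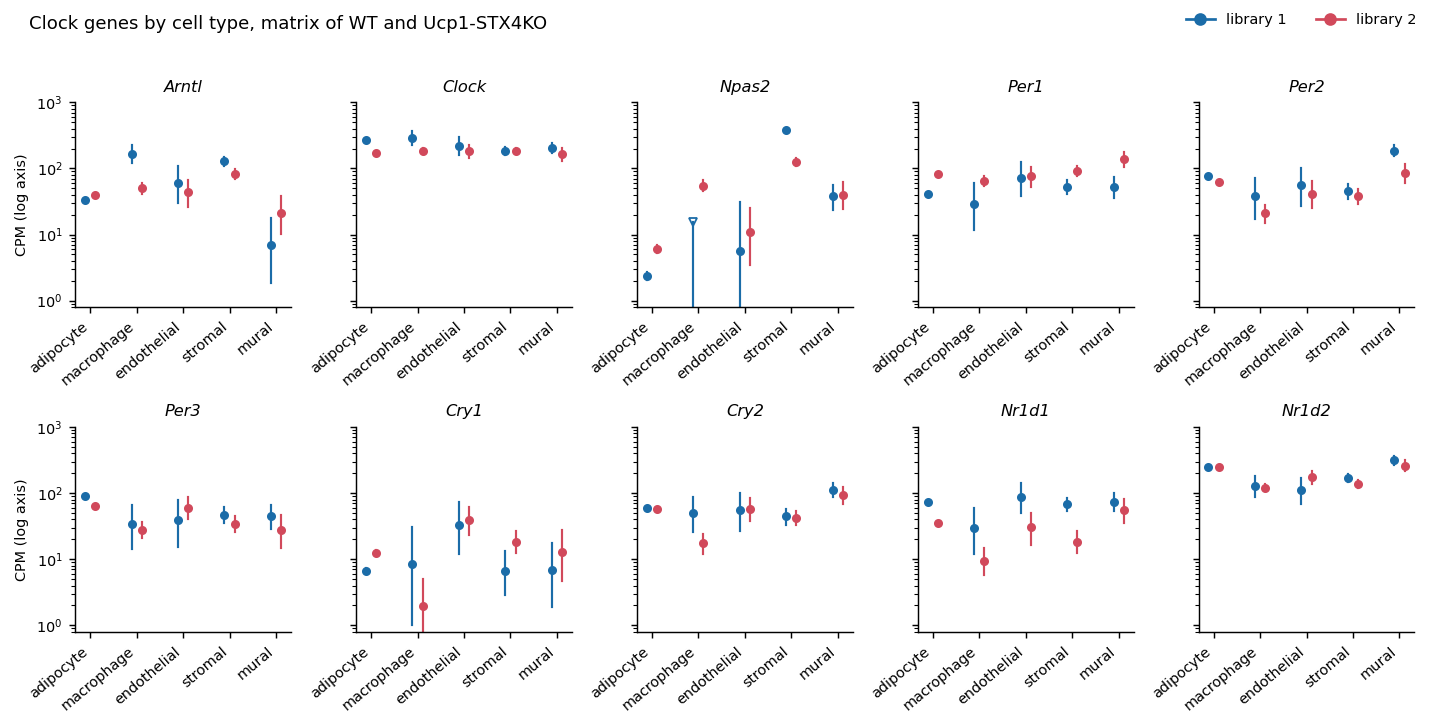
Level of each clock gene (CPM, log axis) in 5 cell types of the WT and Ucp1-STX4KO matrix. Points are libraries 1 and 2, lines are exact 95% Poisson intervals, and the open triangle marks the upper limit of a gene with 0 UMIs. Nr1d1 lies lower in library 2 in every type, except in macrophages once adipocyte RNA is subtracted by its Ucp1 share. Npas2 lies between 124 and 379 CPM in stromal cells against at most 6.04 in adipocytes.

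Nr1d1 (chr11:98767932-98775333, GRCm38, minus strand, overlapping Thra on the opposite strand) encodes REV-ERBα, the repressor that links the clock to metabolism. In adipocytes it was at 74.5 CPM in library 1 and 34.9 CPM in library 2, a ratio of 0.469 (0.438 to 0.501). In stromal cells it was at 67.8 and 18.5 CPM, a ratio of 0.273 (0.173 to 0.42), and in endothelial cells at 88.6 and 30.3 CPM, a ratio of 0.342 (0.155 to 0.748). Library 2 was thus the lower in each of these types beyond counting error. In macrophages the level was 29.4 CPM in library 1 and 9.48 CPM in library 2 from 7 and 19 UMIs, and in mural cells it was 73.7 and 55.0 CPM, with a ratio of 0.746 whose interval (0.44 to 1.24) included 1. The macrophage level was no higher than the share of adipocyte RNA that Ucp1 marks there in library 1. Subtracting that share left 0 CPM in library 1 and 0.387 CPM in library 2. The 7 adipocyte markers gave a smaller share in library 1, at a summed 2818 CPM in macrophages against 9750 CPM in adipocytes. After subtraction of the Ucp1 share Nr1d1 stayed lower in library 2 in stromal cells (46.7 and 9.89 CPM), endothelial cells (57.8 and 11.5 CPM) and mural cells (48.0 and 41.8 CPM). Relative to the median of all genes, the log2 ratio in adipocytes was -0.81, under 2-fold.

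Nr1d2 (chr14:18204054-18239127, minus strand), the paralogue with overlapping repressor function, did not follow Nr1d1. It was at 248 CPM in adipocytes of both libraries, with a ratio of 1 (0.975 to 1.03). In stromal cells it went from 169 to 139 CPM, a ratio of 0.822 (0.676 to 0.998), and in macrophages, endothelial and mural cells its intervals included 1.

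Per1 (chr11:69095217-69109960, plus strand), the E-box gene whose promoter is shown above, was at 41.0 CPM in adipocytes of library 1 and at 83.1 CPM in library 2, a ratio of 2.03 (1.92 to 2.14). It went from 53.1 to 137 CPM in mural cells (ratio 2.59, 1.66 to 4.11), from 52.8 to 91.4 CPM in stromal cells (ratio 1.73, 1.28 to 2.37) and from 29.4 to 64.8 CPM in macrophages (ratio 2.2, 1.04 to 5.59). Library 2 was the higher in these 4 types beyond counting error. In endothelial cells the levels were 72.0 and 75.7 CPM with an interval that included 1. There the direction turned after subtraction of the adipocyte share that Ucp1 marks (55.0 and 30.9 CPM), with no interval for these values.

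Per2 (chr1:91415982-91459324, minus strand) encodes a core inhibitor of the ARNTL pair, and it did not move with Per1. Its level was 185 CPM in mural cells of library 1 and 84.6 CPM in library 2, a ratio of 0.457 (0.31 to 0.662), and 76.2 and 62.2 CPM in adipocytes, a ratio of 0.816 (0.774 to 0.86). In macrophages, endothelial and stromal cells the ratios were 0.553, 0.743 and 0.847 with intervals that included 1. Per3 (chr4:151003652-151044665, minus strand, overlapping Camta1 on the same strand) was at 90.5 and 64.2 CPM in adipocytes, a ratio of 0.709 (0.674 to 0.746), and within counting error in the other types.

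Cry1 (chr10:85131700-85185064, minus strand), a strong inhibitor of the ARNTL pair, was a low transcript. It was at 6.64 CPM in adipocytes of library 1 and 12.3 CPM in library 2 (ratio 1.86, 1.62 to 2.13) and at 6.7 and 18.5 CPM in stromal cells from 8 and 30 UMIs (ratio 2.77, 1.24 to 6.98). Library 2 was the higher in both types. Cry2 (chr2:92403646-92434043, minus strand) was at 59.0 and 56.6 CPM in adipocytes, and its ratio left 1 outside the interval only in macrophages, at 0.346 (0.175 to 0.732) from 12 and 35 UMIs.

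Among the activators, Clock (chr5:76209868-76304792, minus strand) was at 267 CPM in adipocytes of library 1 and 169 CPM in library 2, a ratio of 0.633 (0.614 to 0.653), and at 290 and 182 CPM in macrophages, a ratio of 0.627 (0.484 to 0.824). In endothelial, mural and stromal cells its ratios were 0.821, 0.791 and 0.988 with intervals that included 1, and the stromal direction turned relative to the median of all genes and after subtraction of adipocyte RNA, and both the stromal and the endothelial direction turned in nuclei thinned to 500 UMIs. Arntl (chr7:113207465-113314126, plus strand), the gene without which the clock stops, was slightly higher in library 2 in adipocytes, at 33.7 and 39.9 CPM (ratio 1.18, 1.1 to 1.27). It was lower in library 2 in macrophages, at 168 and 49.9 CPM (ratio 0.297, 0.204 to 0.439), and in stromal cells, at 128 and 82.8 CPM (ratio 0.646, 0.508 to 0.82). Adipocytes and the other 2 types thus differed in direction beyond counting error.

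Npas2 (chr1:39193731-39363236, plus strand), the alternative partner of ARNTL, gave the most divided pattern. In stromal cells it was at 379 CPM in library 1 and 124 CPM in library 2, from 452 and 201 UMIs, a ratio of 0.328 (0.276 to 0.388). In adipocytes it was near the bottom of the range, at 2.36 and 6.04 CPM, with a ratio of 2.56 (2.07 to 3.17). In macrophages it had 0 of 237774 UMIs in library 1, where 3 counts would be 12.6 CPM. In library 2 it had 110 UMIs (54.9 CPM), 4.35 times that floor, a value that leaves out counting error. In mural cells, at 37.7 and 40.2 CPM, the libraries did not differ beyond counting error.

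**Figure D2:**
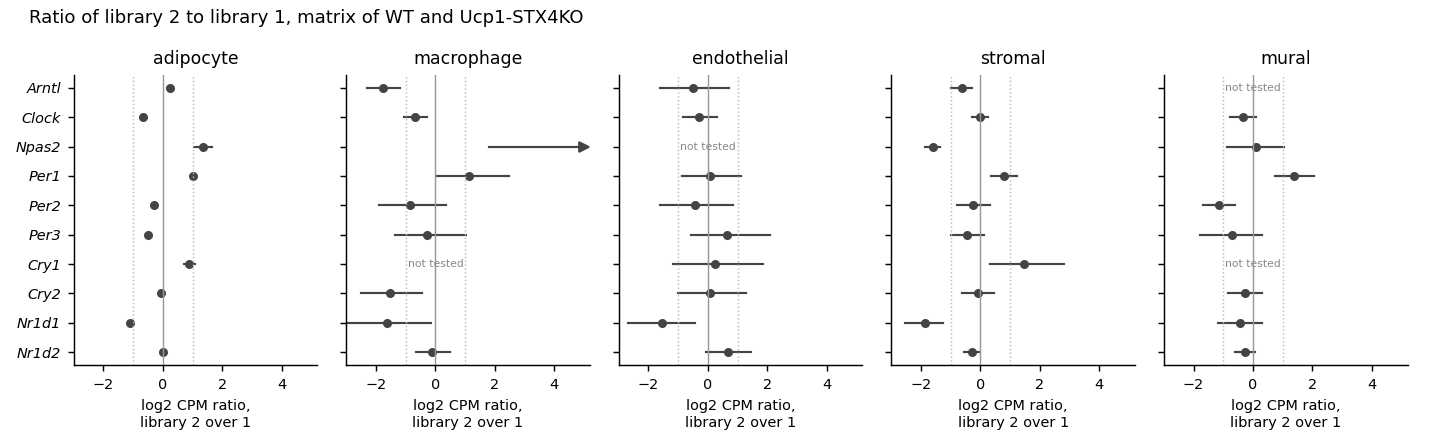
Log2 ratio of CPM in library 2 over library 1 for each clock gene and cell type of the WT and Ucp1-STX4KO matrix, with exact conditional 95% intervals. Dotted lines mark 2-fold, genes with under 20 UMIs over both libraries are marked as not tested, and the arrow marks a gene with 0 UMIs in library 1. Nr1d1 lies left of 0 and Per1 right of 0 in every panel, with intervals that include 0 for Nr1d1 in mural cells and for Per1 in endothelial cells. There Per1 turns once adipocyte RNA is subtracted by its Ucp1 share. Npas2 lies on opposite sides in adipocytes and stromal cells.

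Past 2-fold in either direction were 3 of 10 members in adipocytes, where 39.4% of all tested genes were past 2-fold, 5 of 9 in macrophages against 27%, 1 of 9 in endothelial cells against 21.4%, 3 of 10 in stromal cells against 18.6% and 2 of 8 in mural cells against 13.7%. In adipocytes and endothelial cells the members' share was thus below that of all genes. Of 7 members tested in every type, 3 (Clock, Per2 and Nr1d1) were lowest in library 2 in all 5 types, and 1 (Per1) was highest in all 5. Of all genes tested in every type, 13.8% were lowest and 12.5% highest in library 2 in all 5. By the median of its log2 ratios over types (-1.55), Nr1d1 ranked 43 from the lowest of 1298 genes with 1 direction in every type, and Per1 (1.02) ranked 118 from the highest.

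To set activators against repressors within a library, the UMIs of Arntl and Npas2 were divided by those of Nr1d1, Nr1d2 and Per3. This contrast was 0.0875 in adipocytes of library 1 and 0.132 in library 2, 0.103 and 0.178 in mural cells, 1.78 and 1.08 in stromal cells, 0.87 and 0.66 in macrophages, and 0.279 and 0.203 in endothelial cells. Library 2 was the higher in 2 of 5 types. The difference exceeded the counting intervals in adipocytes (0.0841 to 0.091 against 0.125 to 0.14) and, in the opposite direction, in stromal cells (1.56 to 2.04 against 0.92 to 1.26). The 5 types stood in the same order in both libraries, with stromal cells highest and adipocytes lowest. The lower ranks were not separated beyond counting error. The mural interval (0.0658 to 0.154 in library 1 and 0.116 to 0.265 in library 2) covered that of adipocytes and overlapped that of endothelial cells. In stromal cells most of the numerator of the contrast was Npas2.

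Among 17 other genes of the clock pathway, Hlf, a D-box activator that the clock drives, was at 47.2 and 19.2 CPM in adipocytes, 63.6 and 8.65 CPM in stromal cells and 108 and 46.5 CPM in mural cells, lower in library 2 each time, and subtraction of the adipocyte share left 50.3 and 3.88 CPM in stromal cells and 91.7 and 39.2 CPM in mural cells. In macrophages and endothelial cells it had at most 7 UMIs a library, and the subtraction left 0 CPM in both macrophage libraries. Usp2, a deubiquitinase gene under clock control, was higher in library 2, at 34.4 and 69.4 CPM in adipocytes, 24.3 and 120 CPM in stromal cells and 15.4 and 50.8 CPM in mural cells, and stayed so after the subtraction (14.6 and 103 CPM, and 3.55 and 24.4 CPM). Dbp, another D-box activator and a standard phase marker, was low, at 15.3 and 11.6 CPM in adipocytes. Past 2-fold in either direction were 5 of 17 tested in adipocytes against 39.4% of all genes, 3 of 15 in stromal cells against 18.6%, 4 of 12 in macrophages against 27%, 2 of 10 in mural cells against 13.7% and 0 of 8 in endothelial cells against 21.4%, so that in adipocytes and endothelial cells the share of the list was below that of all genes. Their median log2 ratio in adipocytes was -0.27, close to the median of all genes.

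Signals that can move Per1 outside the clock were read from 8 immediate-early and 8 glucocorticoid-responsive genes. In adipocytes, 6 of 8 immediate-early genes were past 2-fold higher in library 2, where 16.9% of all genes were, and 0 lower. Atf3 was at 0.777 CPM in library 1 and 74.2 CPM in library 2, and Nr4a1, a nuclear receptor gene induced by cAMP, was at 16.7 and 343 CPM. Past 2-fold higher were 4 of 5 tested in macrophages, 2 of 5 in stromal, 1 of 2 in mural and 1 of 5 in endothelial cells, and 0 lower. Of all genes, 13.8%, 7.03%, 6.58% and 12.6% were higher. The endothelial median log2 ratio of the list was -0.46, and Ier2 was lower in library 2 in 4 of 5 types. Outside adipocytes Nr4a1 was at 12.6 and 112 CPM in stromal cells and 20.6 and 169 CPM in mural cells, and subtraction of the adipocyte share left 7.82 and 26.8 CPM and 14.8 and 39.0 CPM, still higher in library 2. In endothelial cells, at 44.3 and 219 CPM, the direction turned after the subtraction (37.4 and 33.5 CPM). That turn rests on the Ucp1 share of 0.539 in library 2. The 7 adipocyte markers gave a smaller share there, at a summed 4299 CPM against 13112 CPM in adipocytes. In macrophages the 64.3 CPM of library 2 were no more than the adipocyte share. Of the glucocorticoid-responsive genes, Zbtb16 and Pdk4 were lower in library 2 in all 5 types, where 13.8% of all genes were, but after the subtraction Pdk4 was at 0 CPM in every type other than adipocytes while Zbtb16 stayed lower in all 5. Fkbp5, which glucocorticoids induce strongly, was at 39.6 and 53.5 CPM in adipocytes, but lower in library 2 in 3 of 5 types, before and after the subtraction. The summed CPM ratio of this list, library 2 over 1, was 0.607 in adipocytes, 0.274 in macrophages, 0.600 in endothelial, 0.835 in stromal and 0.693 in mural cells. Its median log2 ratio was 0.10 in adipocytes and negative in the other types. The part of either list in the Per1 ratio was not tested.

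The matrix of the 3 ages was read in the same way, with each library's own level given since its 3 comparisons share libraries. Per2 had the widest ratio between libraries of any member in adipocytes and mural cells, whereas Npas2 did in endothelial and Per3 in stromal cells. Per2 was lowest in library 2 in all 4 types, and Clock was lowest in library 2 and highest in library 1 in all 4, whereas Cry1 was highest in library 3 in all 4. Of 10 members tested in every type, 2 were thus lowest in library 2 in every type, 1 was highest in library 1 and 1 was highest in library 3. Over all genes tested in every type, the corresponding shares were 9.43%, 11.1% and 3.7%.

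**Figure D3:**
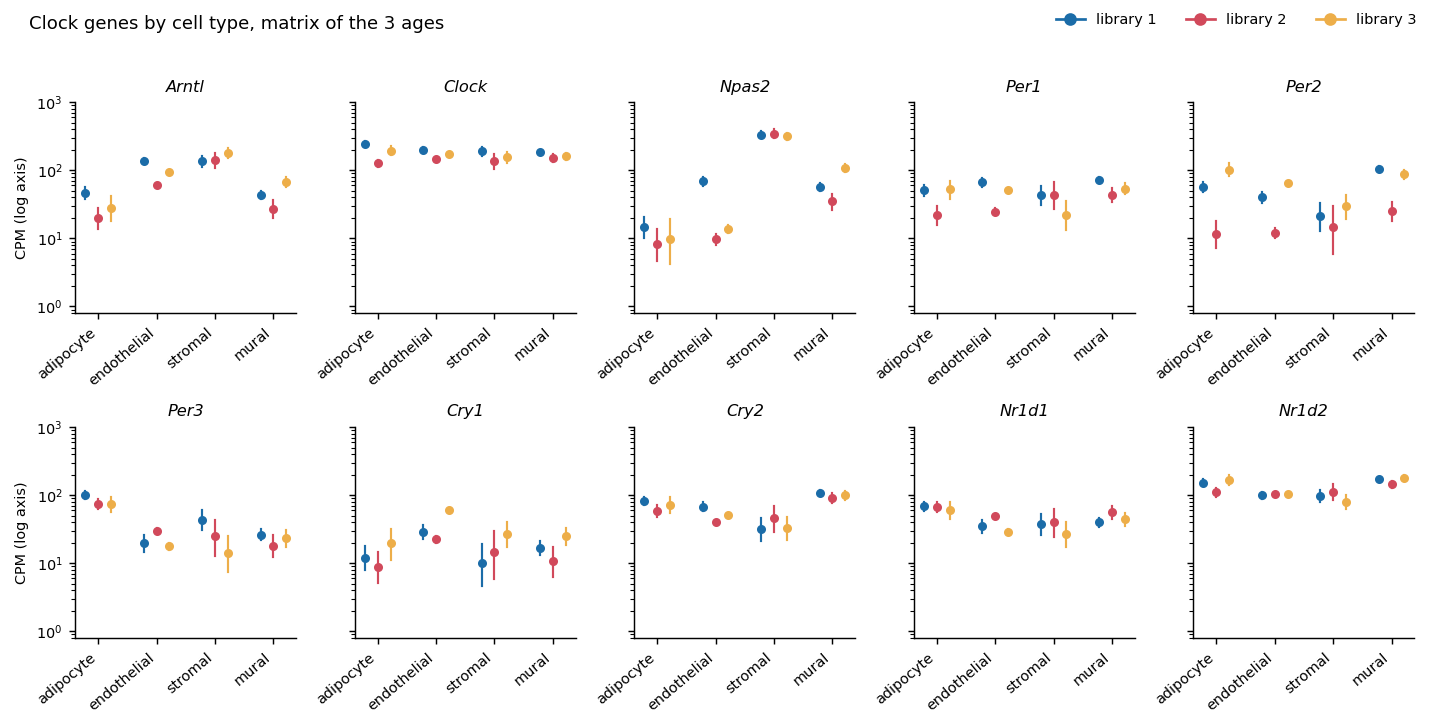
Level of each clock gene (CPM, log axis) in 4 cell types of the matrix of the 3 ages. Points are libraries 1, 2 and 3, and lines are exact 95% Poisson intervals. Per2 in library 2 lies at 25.0 CPM or less in each type, under both other libraries, and Npas2 lies between 316 and 347 CPM in stromal cells of every library.

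Per2 was at 57.5, 11.6 and 102 CPM in adipocytes of libraries 1, 2 and 3, from 124, 21 and 84 UMIs. In mural cells it was at 106, 25.0 and 87.8 CPM, and in endothelial cells at 40.2, 12.1 and 64.2 CPM. Library 2 was the lowest in these types beyond counting error, with ratios to library 1 of 0.202 (0.121 to 0.323), 0.237 (0.167 to 0.327) and 0.302 (0.233 to 0.392). Library 3 over library 2 gave 8.81 in adipocytes (5.41 to 15), 5.3 in endothelial cells (4.47 to 6.32) and 3.51 in mural cells (2.49 to 5.08). In stromal cells library 2 was again the lowest, at 21.3, 14.6 and 29.5 CPM, from 19, 7 and 25 UMIs, within counting error.

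Per1 followed Per2 in library 2 of 3 types. It was at 51.5, 22.1 and 52.4 CPM in adipocytes, 66.4, 24.8 and 50.8 CPM in endothelial cells and 72.6, 43.7 and 53.7 CPM in mural cells. In stromal cells it stood apart, at 43.7, 43.8 and 22.4 CPM, lowest in library 3. The ratio of library 2 to library 1 was 0.43 (0.292 to 0.623) in adipocytes, 0.373 (0.308 to 0.453) in endothelial cells and 0.602 (0.458 to 0.781) in mural cells. Against library 3 the mural direction was less firm. The ratio of library 3 to library 2 was 1.23 there and ran from 0.856 to 1.52 over the ways of processing. Per3, the D-box gene, was at 19.5, 30.1 and 17.8 CPM in endothelial cells, highest in library 2, where both paralogues were lowest. In mural cells it was at 26.2, 18.1 and 23.3 CPM, lowest in library 2 as the paralogues were, but within counting error. It was at 100 CPM in adipocytes of library 1 against 74.2 and 73.1 CPM, and at 43.7, 25.1 and 14.2 CPM in stromal cells, highest in library 1 of both types.

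Cry1 was at 28.6, 22.4 and 61.5 CPM in endothelial cells, where library 3 exceeded library 1 by a ratio of 2.15 (1.69 to 2.77) and library 2 by 2.74 (2.4 to 3.14). It was at 12.1, 8.86 and 19.5 CPM in adipocytes, 16.8, 10.6 and 24.7 CPM in mural cells and 10.1, 14.6 and 27.1 CPM in stromal cells. Library 3 exceeded library 1 beyond counting error in endothelial, mural and stromal cells, and the adipocyte interval of that ratio (0.811 to 3.13) included 1. Cry2 varied less, from 40.1 to 68.0 CPM in endothelial cells and from 91.2 to 109 CPM in mural cells.

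Arntl was at 139, 61.8 and 94.98 CPM in endothelial cells, a ratio of library 2 to library 1 of 0.445 (0.392 to 0.506). In adipocytes it was at 46.4, 19.9 and 28.0 CPM and in mural cells at 43.3, 27.5 and 67.2 CPM, lowest in library 2 each time. The adipocyte log2 ratio of library 2 to library 1 was -1.22, and only -0.28 in nuclei within the full depth range of the methods. In stromal cells it was at 137, 142 and 182 CPM, where libraries 1 and 2 did not differ beyond counting error. Npas2 in endothelial cells was at 69.2 CPM in library 1 and at 9.68 and 13.7 CPM in libraries 2 and 3, a ratio of library 2 to library 1 of 0.14 (0.11 to 0.177). In mural cells Npas2 was instead highest in library 3, at 57.4, 35.0 and 110 CPM, and in stromal cells, at 335, 347 and 316 CPM, the libraries did not differ beyond counting error.

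Clock was at 245, 127 and 195 CPM in adipocytes, 200.1, 149 and 173 CPM in endothelial cells, 192, 138 and 156 CPM in stromal cells and 189, 151 and 161 CPM in mural cells. Without mitochondrially encoded genes in the totals, which took 12.6% of UMIs in library 2, Clock was no longer lowest in library 2 in every type, whereas Per2 was.

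The REV-ERB genes differed from each other. Nr1d1 was at 68.2, 67.0 and 59.7 CPM in adipocytes, with every ratio within counting error. In endothelial cells it was at 34.6, 48.8 and 29.2 CPM and in mural cells at 40.1, 56.2 and 43.9 CPM, highest in library 2, with ratios of library 2 to library 1 of 1.41 (1.12 to 1.79) and 1.4 (1.07 to 1.81). Nr1d2 was at 153, 109.6 and 167 CPM in adipocytes and 171, 144 and 178 CPM in mural cells, lowest in library 2 as Per1 and Per2 were, with ratios of library 2 to library 1 of 0.716 (0.597 to 0.857) and 0.837 (0.72 to 0.972). Against library 3 the adipocyte direction turned within the full depth range. In endothelial cells, at 99.5, 106 and 106 CPM, and in stromal cells, at 97.5, 113 and 80.2 CPM, its intervals included 1.

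Between libraries 2 and 1, 3 of 10 members were past 2-fold in adipocytes, 4 of 10 in endothelial cells, 1 of 10 in mural cells and 0 of 9 in stromal cells, where 17.5%, 19%, 15.4% and 18.3% of all tested genes were. Every member past 2-fold in this pair was lower in library 2, as were 8.26%, 6.01%, 5.59% and 10.2% of all tested genes in these types. Between libraries 3 and 1 the counts were 0, 2, 0 and 2 of 10 against 15.7%, 15.6%, 11.4% and 19.5%. Between libraries 3 and 2 they were 3, 3, 4 and 1 of 10 in adipocytes, endothelial, mural and stromal cells against 11.2%, 15%, 11.7% and 17.9%.

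The contrast of Arntl and Npas2 against Nr1d1, Nr1d2 and Per3 was 1.35, 0.387 and 0.712 in endothelial cells of libraries 1, 2 and 3 and 0.423, 0.287 and 0.721 in mural cells. It was 0.19, 0.113 and 0.126 in adipocytes and 2.63, 2.75 and 4.1 in stromal cells. Library 2 had the lowest value in 3 of 4 types, and in endothelial and mural cells its interval overlapped neither other library. Libraries 1 and 3 had no common order, since library 1 was the higher in endothelial cells (1.19 to 1.55 against 0.668 to 0.758) and library 3 in mural cells (0.63 to 0.824 against 0.378 to 0.473).

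Beside the low Per1 and Per2 of library 2, 4 of 8 glucocorticoid-responsive genes were lowest in library 2 in all 4 types, where 9.43% of all genes were, and each of the 4 stayed so after subtraction of the adipocyte share. RNA carried over from endothelial nuclei was not subtracted, so the types are not independent of it. Zbtb16 was at 1005 CPM in adipocytes of library 1 and at 86.9 and 1103 CPM in libraries 2 and 3, and Fkbp5 at 140.03, 8.3 and 183 CPM. In endothelial cells Zbtb16 was at 1516, 65.9 and 1205 CPM and Fkbp5 at 202, 26.8 and 253 CPM. Library 2 was the lowest in both genes and in both types beyond counting error. Tsc22d3 (GILZ), at 245, 35.5 and 72.0 CPM in stromal cells, and Klf9, at 239.7, 148 and 274 CPM in adipocytes, were the others. Pdk4, which glucocorticoids also induce, was highest in library 2 in all 4 types, but after the subtraction only in adipocytes, with 0 CPM left in library 2 of the other types. The immediate-early genes were divided. Between libraries 2 and 1, 3 of 8 were past 2-fold higher and 0 lower in adipocytes, 4 of 7 higher and 0 lower in stromal cells, 2 of 8 higher and 1 lower in endothelial cells, and 3 of 8 higher and 2 lower in mural cells, where the median log2 ratio of the list was -0.31 and 5 intervals lay below 1. Of all tested genes, 17.5%, 18.3%, 19% and 15.4% were past 2-fold in either direction in these types. Egr1 and Ier2 were highest in library 2 in all 4 types, as 6.98% of all genes were, with Egr1 at 77.9, 336 and 147 CPM in adipocytes. The part of either list in the Per levels was not tested.

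**Figure D4:**
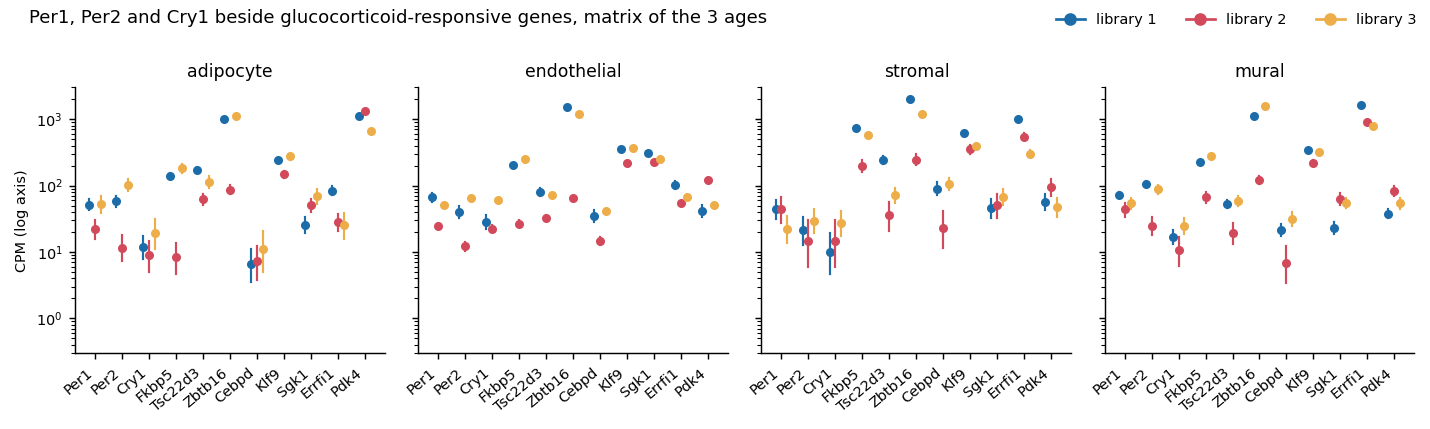
Levels (CPM, log axis) of Per1, Per2 and Cry1 and of 8 glucocorticoid-responsive genes in 4 cell types of the matrix of the 3 ages. Points are libraries and lines exact 95% Poisson intervals. In library 2, Fkbp5, Tsc22d3, Zbtb16 and Klf9 lie under both other libraries in every panel, as Per2 does, and Pdk4 lies above them, though only in adipocytes once adipocyte RNA is subtracted.

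Of the 17 other pathway genes, 13 were tested in every type of this matrix. Nfil3, the repressor at D-boxes, was lowest in library 2 in all 4 types, at 38.5, 26.0 and 52.4 CPM in adipocytes and 12.7, 4.25 and 8.31 CPM in endothelial cells. The D-box activators did not move together. Dbp was at 28.7, 18.8 and 28.0 CPM in adipocytes but at 5.97, 13.7 and 4.51 CPM in endothelial cells, highest in library 2. Hlf was at 98.8, 75.8 and 92.6 CPM in adipocytes and Tef at 279, 209.8 and 284 CPM.

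The cell types differed in their clock genes in every library. Npas2 was highest in stromal cells of all 5 libraries, from 124 to 379 CPM, and at most 14.8 CPM in adipocytes, and the stromal level exceeded the next type beyond counting error in each library. Per3 was highest in adipocytes of 4 libraries, 1.93 to 3.13 times the next type, and in library 2 of the first matrix in skeletal muscle nuclei. Cry2 was highest in mural cells of all 5 libraries, from 91.2 to 111 CPM, beyond the next type in 4 of them. Per2 was highest in mural cells of 4 libraries, and in library 2 of each matrix mural cells and the next type did not differ beyond counting error. Arntl in adipocytes and mural cells, from 6.86 to 67.2 CPM, stood under stromal cells, from 82.8 to 182 CPM, in every library. The levels of members in types other than adipocytes were above the share of adipocyte RNA that Ucp1 marks in 36 of 40 values and 56 of 60 values in libraries 1 and 2 of the first matrix and in each of the 40, 30 and 30 values of the second. By the adipocyte markers the share was larger in some types of the second matrix. There Per3 in endothelial cells of library 1 was at 0.195 of its adipocyte level.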

How the data were processed

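The authors aligned single-nuclei reads of iBAT (10x Genomics 3′ assay) to mouse mm10 with Cell Ranger 6.1.2 and deposited raw UMI counts per gene and nucleus in 2 matrices. The annotation release, the counting of introns and any equalising of depth are not given in the sources used here. Barcode suffixes are tied to no sample, so each matrix was treated as pooled and libraries were named by suffix.

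Nuclei with at least 200 UMIs and 100 genes were kept. The full range stated in the methods (to 2000 UMIs and 3000 genes) left none of library 1 of the first matrix and was an alternative. A nucleus was assigned by marker UMIs per 10000 UMIs over the mean rate of marker-positive nuclei (at least 0.33, with at least 2 markers and 3 marker UMIs, and at least 2 times the next list). Nuclei that reached more than 1 list were left out, and no doublet caller was run. Since free adipocyte RNA was common, a nucleus with another list's markers needed a score above its adipocyte score.

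UMIs were summed per type and library where both or all libraries had at least 50 nuclei, and genes with at least 20 UMIs over a pair were tested. CPM ratios have exact conditional binomial intervals, sums exact Poisson intervals and the contrast exact binomial intervals, all at 95% and for counting error only. For a count of 0 the floor was 3 counts in that library. Python 3.11.15, numpy 2.4.6, scipy 1.17.1, pandas 2.3.3 and matplotlib 3.10.9 were used. The ratios were tested on simulated Poisson counts, which hold no variation between nuclei, mice or libraries and no carried-over RNA. Positions are from a GRCm38 annotation and promoters from RefSeq.

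The members, lists and tests were chosen with earlier results of these data known. The genes named were the members, the lists, the 5 genes most like Arntl and the 5 most like Nr1d1 over log2(CPM + 5), and the 5 highest and 5 lowest by median log2 ratio among genes with 1 direction in every type of the first matrix. The values of 1 pathway gene are not reported here, though the counts over its list include it.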

Additional observations from a re-analysis of the deposited data

Results flagged for a closer look

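Npas2 is listed because its difference between libraries 2 and 1 of the WT and Ucp1-STX4KO matrix lay on opposite sides in different cell types, each past 2-fold with an interval that excluded 1. The CPM ratio was 2.56 in adipocytes and 0.328 in stromal cells, and in macrophages Npas2 was at 54.9 CPM in library 2 with no UMI in library 1. The difference between types was not tested, since each type has 1 library a side. The adipocyte values are low (2.36 and 6.04 CPM), and stromal nuclei, where Npas2 is highest, made up a different number of nuclei in each library (319 and 500).

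Further values come from types that had enough nuclei in only 1 library and enter no comparison above. Skeletal muscle nuclei of library 2 in the first matrix (324 nuclei) held the 10 clock genes at a summed 900.1 CPM. Per3 was at 147 CPM there, 2.29 times the adipocyte level (2.0 to 2.63), Nr1d2 at 346 CPM and Clock at 52.1 CPM. Of the other pathway genes, Usp2 was at 778 CPM and Dbp at 74.5 CPM, against 69.4 and 11.6 CPM in adipocytes of the same library. T lymphocyte nuclei of that library (131 nuclei) held the clock genes at a summed 523 CPM, with Arntl at 133 CPM (29 UMIs) and Per2 at 13.8 CPM (3 UMIs). Schwann nuclei of library 1 in the matrix of the ages (381 nuclei) held them at a summed 609.7 CPM, with Arntl at 167 CPM, Nr1d1 at 66.5 CPM and Per2 at 5.11 CPM. The contrast of Arntl and Npas2 against Nr1d1, Nr1d2 and Per3 was 0.075 in skeletal muscle, 0.892 in T lymphocytes and 0.9 in Schwann nuclei.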

How the results depend on the processing

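The 36 finite values of a member past 2-fold in a type and library pair were compared again where an alternative gave a value. They kept their direction in 36 of 36 with the stricter marker gate, with shared barcodes left out, relative to the median of all genes, and without mitochondrially encoded genes, in 35 of 35 without the deepest 10% of nuclei, in 30 of 30 without Ucp1-positive nuclei, in 22 of 22 after thinning to 500 UMIs and in 18 of 18 in the full stated range. With carried-over adipocyte RNA subtracted, 35 of 35 kept it, and Nr1d1 in macrophages gave no ratio, at 0 CPM in library 1. The subtraction and the removal of Ucp1-positive nuclei act only on types other than adipocytes. The adipocyte values in these counts were therefore unchanged by construction. Past 2-fold remained 34 of 35 after subtraction, 33 of 35 without the deepest nuclei, 16 of 18 in the full range, 20 of 22 after thinning, 27 of 30 without Ucp1-positive nuclei, 35 of 36 relative to the median and 34 of 36 without mitochondrial genes. The lost value that moved by over 1.5 times was Arntl in adipocytes of the ages, library 2 over 1, from a log2 ratio of -1.22 to -0.28 in the full range. The subtraction and the setting without mitochondrial genes were chosen after seeing the data. The full range and thinning leave fewer genes tested, and the full range gave no value in the first matrix.

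In the first matrix, members lowest in library 2 in every type were 3 of 7, and 0 of 2 after thinning and 1 of 7 (Per2) after subtraction. Gene and type pairs past 2-fold were 14 of 46, and 8 of 26 after thinning, 6 of 26 without Ucp1-positive nuclei (3 types left) and 23 of 46 at a fold of 1.5. In the matrix of the ages, members lowest in library 2 in every type were 2 of 10 (Clock and Per2). They were 1 of 3 after thinning (Nr1d2, and no longer Clock) and 1 of 10 without mitochondrial genes (Per2). At a fold of 1.5, the pairs past it were 17, 12 and 19 for libraries 2 over 1, 3 over 1 and 3 over 2, against 8, 4 and 11 at 2-fold. The contrast was higher in library 2 in 2 of 5 types of the first matrix and lowest in library 2 in 3 of 4 types of the second. In the first matrix it was higher in 3 of 5 types with Arntl set against Dbp, Tef and Hlf. Without Ucp1-positive nuclei in types other than adipocytes it was higher in 2 of 3 types, the adipocytes being unchanged. In the second matrix the alternatives gave from 2 of 4 to 4 of 4 types. Of the values of single genes, 1251 stayed within their intervals and 82 moved beyond them, and of contrast values 119 and 21.

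No paired analysis was possible because each condition has 1 library and the barcode suffixes carry no sample. The macrophage and endothelial nuclei of library 1 of the first matrix (73 and 65) limit the precision of their values.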

Other observations

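By the median of their log2 ratios over types, other genes shifted by more than the clock genes in the WT and Ucp1-STX4KO matrix. Among 1298 genes with 1 direction in all 5 types, Alcam, Lgals3, Ppargc1a, Gfpt2 and Nr4a2 were the highest in library 2, with median log2 ratios of 4.40, 4.00, 3.89, 3.29 and 3.10. Ppargc1a encodes PGC-1α, the coactivator of thermogenesis that cAMP induces in brown adipocytes. The lowest were Hba-a1, Coq8a, Hbb-bs, Hba-a2 and Cox7a1, with median log2 ratios of -3.95, -3.53, -3.40, -2.79 and -2.13. Hba-a1, Hbb-bs and Hba-a2 are haemoglobin genes and mark red blood cells, and Coq8a and Cox7a1 encode mitochondrial proteins. After subtraction of the carried-over adipocyte share, Alcam, Lgals3, Gfpt2, Hba-a1, Hbb-bs, Hba-a2 and Cox7a1 kept their direction in all 5 types. Ppargc1a then had 0 CPM in every type other than adipocytes, Nr4a2 was higher in library 2 in 1 of 5 types, and Coq8a was lower in 2 of 5.

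Over 25 profiles of a type in a library, the genes whose log2(CPM + 5) was most like that of Arntl were Slc39a10, Nek6, Gas7, S100a10 and Lpar1 (Pearson r from 0.763 to 0.729). Those most like Nr1d1 were Park7, Ndufv3, Ankrd46, Txnip and Cox5b, the first with r = 0.789. The profiles share libraries and depth, so these values are a description.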
